A study of Ambystoma mexicanum with 8 samples.

Results

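The mucin contigs of the axolotl limb stump are 7 of the 91843 contigs in the deposited tables. A contig is a transcript assembled from the reads alone, here with Trinity, whose identifier gives a read cluster (TR number), a component (c), an assembled gene (g) and an isoform (i). The 7 contigs were selected because the study's table of differential transcripts, made from these same libraries, gave them the name of a mucin as their closest SwissProt protein. The differential-expression values of these libraries therefore chose the members, and their differences between the groups are given as a description, with no test. A set of 3 contigs came from read cluster TR26414, of which TR26414|c0_g1_i1 and TR26414|c12_g1_i1 were named MUC5B_HUMAN and TR26414|c2_g1_i1 was named MUC5A_HUMAN. Another 3 came from read cluster TR26098, of which TR26098|c2_g1_i1 and TR26098|c3_g1_i1 were named MUC5B_HUMAN and TR26098|c4_g1_i1 was named MUC2L_RAT. The last, TR18673|c1_g2_i1, was named MUC3A_HUMAN.

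Mucins are long proteins whose serine- and threonine-rich repeats carry dense O-linked sugars. In mammals MUC5B, MUC5AC (the SwissProt entry MUC5A_HUMAN) and MUC2 are secreted by goblet and gland cells and form the gel of mucus, while MUC3A sits in the cell membrane. Amphibian skin is kept moist by mucous glands and by mucus-bearing cells of the epidermis. The names are best matches to mammalian proteins and do not establish which axolotl gene a contig belongs to, and contigs with different names within 1 read cluster may be pieces of 1 transcript.

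Each library was made from a limb stump of a leucistic axolotl of wild-type genotype at 3 days post-amputation. In the repeatedly amputated group (labelled Multi-amp, 4 libraries, columns MR14, MR2, MR5 and MR6) the limbs had failed to regenerate and then received their 6th amputation slightly proximal to the previous plane. In the control group (labelled Control, 4 libraries, columns Control1, Control3, Control4 and Control6) limbs of uninjured siblings, matched for age and size, received 1 amputation at the same anatomical position. The tissue just proximal to the cut was taken, with no stated separation of skin from deeper tissue. A lower level can mean fewer cells of a type or less RNA per cell, which bulk libraries cannot tell apart. Only limbs that had failed to regenerate entered the repeatedly amputated group.

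Summed counts ranged from 15596527 to 17980271 in repeatedly amputated limbs and from 16765785 to 18437103 in control limbs, so that 3 counts, taken as the floor of detection, amounted to 0.158 to 0.192 CPM (counts per 1000000 of the scaled library size). The libraries MR5 and Control3 stood apart for the mucins, and the mucin values below are given with and without them. The label of limb skin was set against a list of 6 epidermal contigs. Their summed level was 401, 409, 934 and 1689 CPM in MR14, MR2, MR5 and MR6, against 1352, 4020, 1549 and 1067 CPM in Control1, Control3, Control4 and Control6. Of the 4020 CPM in Control3, 3045 came from the keratin contig K2C5_XENLA alone. Epidermal RNA was thus present in all 8 libraries, but so was that of muscle and cartilage, and no library held skin alone.

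The mucins of read clusters TR26414 and TR26098 were abundant in different limbs. The TR26414 contigs had reads in all 8 libraries, although TR26414|c12_g1_i1 was under the floor in Control3 and Control4, and were far higher in MR5, and to a lesser degree in MR2, than in any other. The TR26098 contigs were found almost wholly in Control3 and Control6 and were at or near 0 in the other 6. The TR18673 contig was present in all 4 control limbs, mostly in Control3, and was at 0 in all 4 repeatedly amputated limbs. For each of the 7 contigs, 1 library held over 70% of the CPM summed over the 8 libraries. The same held for 0.336% of the 23782 contigs with at least 200 summed counts, and for 0.107% of the 32757 contigs that passed the filter on low counts, a filter that only 3 of the 7 mucin contigs passed. Since the 7 were chosen from a table made on these libraries, nothing is read from this gap. The libraries MR5 and Control3 also stood out beyond the mucins. Of the 80 contigs with over 70% in 1 library and at least 200 summed counts, Control3 was that library for 31 and MR5 for 15. These numbers include the 7 mucin contigs, and the next highest was 9, for both Control1 and Control6.

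**Figure D1:**
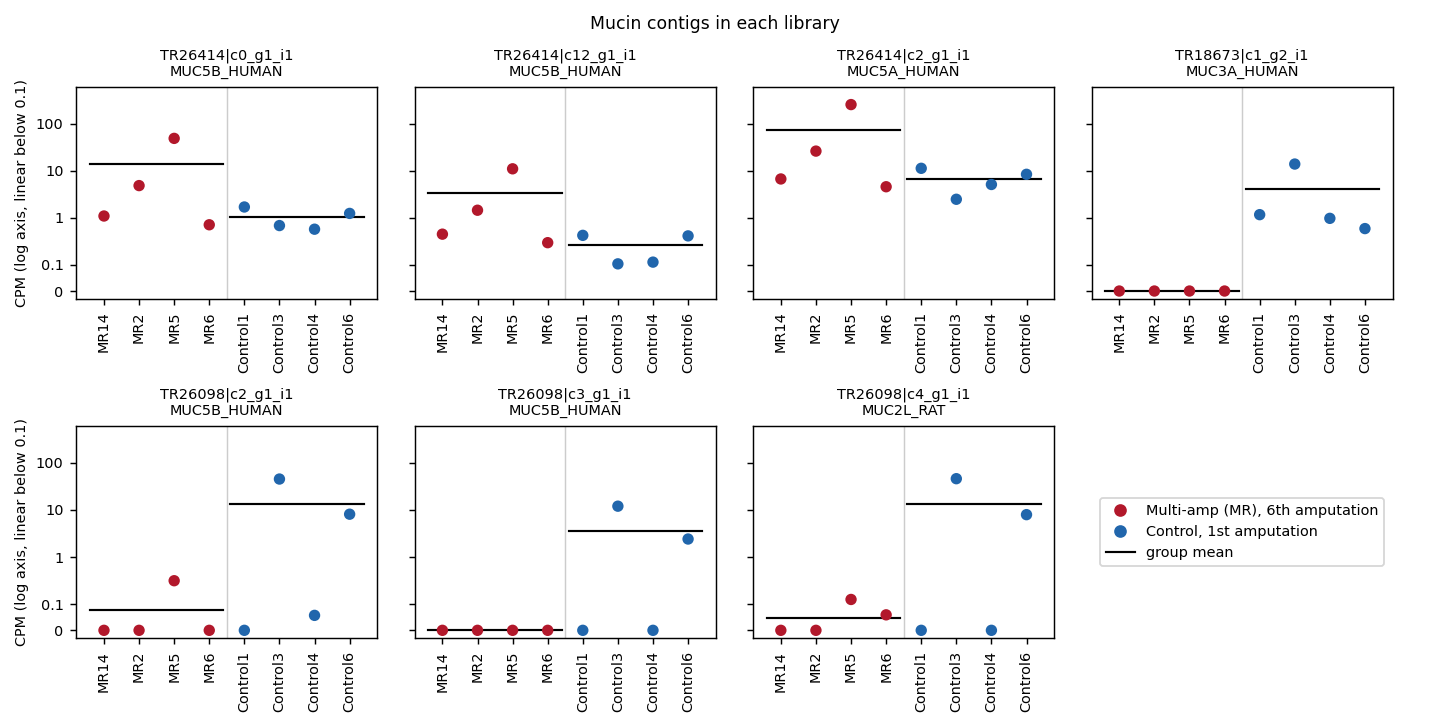
Level of each of the 7 mucin contigs (CPM, log axis that is linear below 0.1) in each library, repeatedly amputated limbs in red to the left and control limbs in blue to the right, with a line at each group mean. MR5 is the highest library in all 3 TR26414 panels and Control3 in the other 4, and TR18673|c1_g2_i1 is at 0 in every repeatedly amputated limb.

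The most abundant mucin contig was TR26414|c2_g1_i1, named after MUC5AC, a gel-forming mucin of the mammalian airway and stomach. It had 104, 432, 4018 and 77 counts in limbs MR14, MR2, MR5 and MR6, against 212, 47, 89 and 142 counts in limbs Control1, Control3, Control4 and Control6. Scaled to library size, these were 6.66, 26.0, 253 and 4.55 CPM in repeatedly amputated limbs and 11.2, 2.47, 5.09 and 8.36 CPM in control limbs. MR5 and MR2 lay above every control limb, while MR14 and MR6 lay inside the range of the control limbs. The mean was 72.5 ± 121 CPM in repeatedly amputated limbs and 6.78 ± 3.81 CPM in control limbs (SD, n = 4 each), a 10.7-fold higher mean. Without MR5 the means were 12.4 and 6.78 CPM, and the ratio was 1.83.

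TR26414|c0_g1_i1, named after MUC5B, the other main gel-forming mucin of mammalian airways, had 17, 80, 770 and 12 counts in limbs MR14, MR2, MR5 and MR6, against 32, 13, 10 and 21 counts in limbs Control1, Control3, Control4 and Control6. The same libraries stood out, with 48.4 CPM in MR5 and 4.82 CPM in MR2, against 0.571 to 1.69 CPM in control limbs. Its mean was 13.8 ± 23.2 CPM in repeatedly amputated limbs and 1.05 ± 0.520 CPM in control limbs (SD, n = 4 each). The ratio of means was 13.2 with MR5 and 2.11 without it.

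TR26414|c12_g1_i1, also named after MUC5B and the shortest of the 3, had 7, 24, 174 and 5 counts in limbs MR14, MR2, MR5 and MR6, against 8, 2, 2 and 7 counts in limbs Control1, Control3, Control4 and Control6. Its counts in 2 of the control limbs were under the floor. MR14, with 0.448 CPM, lay only just above the highest control limb, Control1, with 0.423 CPM. The ratio of means was 12.5 with MR5 and 2.77 without it.

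Summed over the 3 contigs, TR26414 mucin stood at 8.20, 32.3, 312 and 5.56 CPM in MR14, MR2, MR5 and MR6, against 13.3, 3.26, 5.77 and 10.01 CPM in Control1, Control3, Control4 and Control6. The groups overlapped, since MR14 and MR6 were lower than Control1 and Control6. MR5 held 79.9% of the CPM summed over the 8 libraries and MR2 a further 8.26%. On the log2 CPM scale the difference between group means was 1.88 (SE 1.39), smaller than the pooled SD of 1.96 between libraries of a group. It was 0.69 (SE 0.89) without MR5 and -0.06 (SE 0.53) without both MR5 and MR2. The median difference over all 32757 contigs tested was -0.01 on the same scale.

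The TR26098 contigs gave the opposite picture in other limbs. TR26098|c4_g1_i1, named after an intestinal mucin of rat that resembles MUC2, had 0, 0, 2 and 1 counts in limbs MR14, MR2, MR5 and MR6, against 0, 878, 0 and 135 counts in limbs Control1, Control3, Control4 and Control6. Control1 and Control4 therefore did not differ from the repeatedly amputated limbs by more than 2 counts. Every repeatedly amputated limb was at or under 3 counts. Set against that floor in each library, the control mean was at least 73.2-fold higher, and at least 14.3-fold higher without Control3. What remained without Control3 was Control6 alone.

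TR26098|c2_g1_i1, named after MUC5B, had 0, 0, 5 and 0 counts in limbs MR14, MR2, MR5 and MR6, against 0, 863, 1 and 138 counts in limbs Control1, Control3, Control4 and Control6. Its level was 45.3 CPM in Control3 and 8.12 CPM in Control6. The 5 counts in MR5, 0.314 CPM, exceeded the values in Control1 and Control4. The mean was 0.0786 ± 0.157 CPM in repeatedly amputated limbs and 13.4 ± 21.6 CPM in control limbs, or 2.73 CPM in control limbs without Control3.

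TR26098|c3_g1_i1, a short piece also named after MUC5B, was at 0 in all 4 repeatedly amputated limbs and had 0, 229, 0 and 41 counts in limbs Control1, Control3, Control4 and Control6. Against the floor of 3 counts in each library the control mean was at least 19.5-fold higher, and at least 4.36-fold higher without Control3. Control1 and Control4 again shared the 0 of the repeatedly amputated limbs.

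Summed over the 3 contigs, TR26098 mucin stood at 0, 0, 0.440 and 0.0591 CPM in MR14, MR2, MR5 and MR6, against 0, 103, 0.0571 and 18.5 CPM in Control1, Control3, Control4 and Control6. Control3 held 84.5% and Control6 15.1% of the CPM over the 8 libraries. The difference of group means was -4.27 on the log2 CPM scale (SE 3.04), with a pooled SD of 4.29 between libraries of a group. It was -2.22 (SE 3.02) without Control3. Without both Control3 and Control6 it was 0.62 (SE 1.22), with at most 7 summed counts left in any library. The presence of this mucin in the control group was thus a property of 2 of its 4 limbs.

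TR18673|c1_g2_i1, named after the membrane mucin MUC3A, had 0 counts in each of the 4 repeatedly amputated limbs, against 22, 263, 17 and 10 counts in limbs Control1, Control3, Control4 and Control6. It was the only one of the 7 contigs whose groups did not overlap. Among all contigs tested, 3.08% had every repeatedly amputated limb below every control limb and 3.29% had the reverse, and since the contig was chosen on this contrast nothing is read from its place among them. Control3, with 13.8 CPM, held 83.5% of the total, and the other control limbs had 0.589 to 1.16 CPM. The control mean of 4.13 ± 6.45 CPM was at least 22.4-fold above the floor of 3 counts in each repeatedly amputated library, and at least 4.92-fold without Control3. Its deposited counts were fractions in 2 libraries, where the counting program divided fragments between contigs, whereas those of the other 6 mucin contigs were whole in all 8 libraries, within 0.001 of a whole number.

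The ratio of the 2 read clusters within a library does not depend on scaling between libraries. With 0.5 counts added to each sum, the log2 ratio of TR26414 to TR26098 mucin was 8.01, 10.1, 9.37 and 5.98 in MR14, MR2, MR5 and MR6, against 8.98, -4.98, 6.08 and -0.88 in Control1, Control3, Control4 and Control6. In 6 of the 8 libraries, all 4 repeatedly amputated limbs and 2 control limbs, TR26414 mucin was by far the more frequent. TR26098 mucin was the more frequent in Control3, with 1970 against 62 counts, and by less in Control6, with 314 against 170 counts. The group means were 8.36 ± 1.802 in repeatedly amputated limbs and 2.30 ± 6.38 in control limbs (SD, n = 4 each), a difference of 6.06 (SE 3.31). Without Control3 and Control6 the difference was 0.82 (SE 1.71). The choice of members set the direction of this difference.

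**Figure D2:**
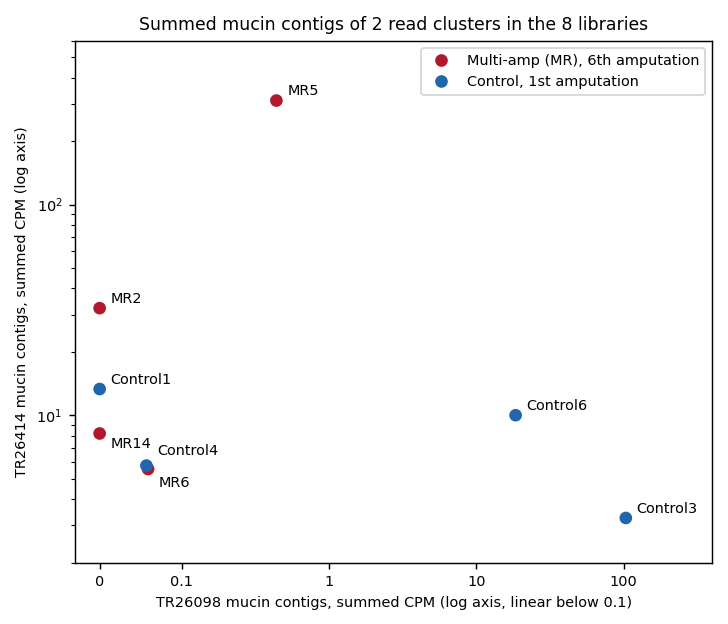
Summed level of the 3 TR26414 contigs (vertical, CPM, log axis) against that of the 3 TR26098 contigs (horizontal, CPM, log axis that is linear below 0.1), 1 labelled point per library, repeatedly amputated limbs in red and control limbs in blue. MR5 stands alone at 312 CPM on the vertical axis and Control3 at 103 CPM on the horizontal axis, while MR14 and MR6 lie beside Control1 and Control4.

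Within each read cluster the contigs kept nearly the same proportions in the libraries with enough reads to compare. TR26414|c2_g1_i1 made up 81.0% of the TR26414 mucin counts in MR5 (exact 95% binomial interval 79.9 to 82.1%, 4018 of 4962 counts) and 75.8% in Control3 (63.3 to 85.8%, 47 of 62 counts), the lowest of the 8 libraries. The highest share, 88.1%, was in Control4 (80.2 to 93.7%, 89 of 101 counts). In TR26098 the contigs c2_g1_i1, c3_g1_i1 and c4_g1_i1 made up 43.8, 11.6 and 44.6% of 1970 counts in Control3 and 43.9, 13.1 and 43.0% of 314 counts in Control6. The intervals of Control6, 38.4 to 49.6%, 9.54 to 17.3% and 37.4 to 48.7%, held the shares of Control3 in each case. These intervals cover counting error only, and contigs of 1 read cluster are not independent replicates of each other.

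Per length, in the deposited FPKM (fragments per kilobase per 1000000 fragments, scaled by TMM), the contigs of a cluster still differed. TR26414|c2_g1_i1, TR26414|c0_g1_i1 and TR26414|c12_g1_i1 had levels of 73.9, 57.4 and 19.3 FPKM in MR5. TR26098|c3_g1_i1, TR26098|c4_g1_i1 and TR26098|c2_g1_i1 had levels of 30.6, 18.6 and 10.8 FPKM in Control3, and 6.10, 3.19 and 1.93 FPKM in Control6, the same order in both limbs. The lengths that the counts and FPKM values imply ran up to 4216 bases for TR26098|c2_g1_i1 and down to 393 bases for TR26098|c3_g1_i1.

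The 3 read clusters held 37 contigs in all, 10 in TR18673, 3 in TR26098 and 24 in TR26414, so that TR26098 held nothing but its 3 mucin contigs. Of the 30 that were not members, 6 were entries of the study's table without a protein name and 24 were not in that table. Those 24 were not chosen by the rule, and 11 of them passed the filter on low counts, all in TR26414. None of the 11 passed a false discovery rate (FDR) of 0.05 in edgeR's quasi-likelihood test, in which 0.0122% of all 32757 contigs did, and the lowest adjusted p among them was 0.429. At an unadjusted p under 0.05 there were 3 of the 11, against 11.1% of all contigs tested. These were TR26414|c3_g1_i1, with a log2 fold change of 2.97, and TR26414|c1_g1_i1 and TR26414|c4_g1_i1, with -0.51 and -0.43. The edgeR exact test, DESeq2 and limma on both FPKM scales each also gave 0 of the 11 at the FDR and 2 at the unadjusted p.

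These neighbours fell into contigs that followed the mucin pattern of MR5 and contigs with even levels. TR26414|c3_g1_i1, just outside the rule since the table did not list it, had 70, 146, 1617 and 47 counts in limbs MR14, MR2, MR5 and MR6, against 126, 19, 51 and 75 counts in limbs Control1, Control3, Control4 and Control6. TR26414|c8_g1_i1 had 29, 84, 918 and 20 counts in the repeatedly amputated limbs, against 57, 8, 30 and 51 counts in the control limbs, in the same order of libraries. For both, MR5 was highest, MR2 second and Control3 lowest, as for TR26414|c2_g1_i1. Their log2 fold changes were 2.97 (SE 1.25, adjusted p = 0.435) and 3.01 (SE 1.33, adjusted p = 0.456) in edgeR's quasi-likelihood test. As differences of mean log2 CPM, the measure used for the mucin sums, the values were 1.75 (SE 1.29) and 1.63 (SE 1.41). The unnamed table entry TR26414|c2_g2_i1, a second assembled gene of the MUC5AC-named component, had 22, 94, 751 and 16 counts in repeatedly amputated limbs and 40, 10, 10 and 23 counts in control limbs.

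The other 9 tested contigs of TR26414 were spread evenly, with 16.8 to 21.8% of the CPM in their highest library. The highest log2 fold change among these 9 was 0.45 (TR26414|c5_g2_i1, adjusted p = 0.516 in edgeR). The lowest value was -0.51, for TR26414|c1_g1_i1 (adjusted p = 0.429), followed by TR26414|c5_g2_i2 with -0.50 (adjusted p = 0.666) and TR26414|c4_g1_i1 with -0.43 (adjusted p = 0.438). The contigs TR26414|c5_g2_i1 and TR26414|c5_g2_i2 are isoforms of the same assembled gene, with fractional counts in all 8 libraries. Fragments were divided there, so the opposite values of these isoforms are uncertain. Within TR26414, then, 3 of the neighbours that passed the filter shared the pattern of the mucins and 9 did not.

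**Figure D3:**
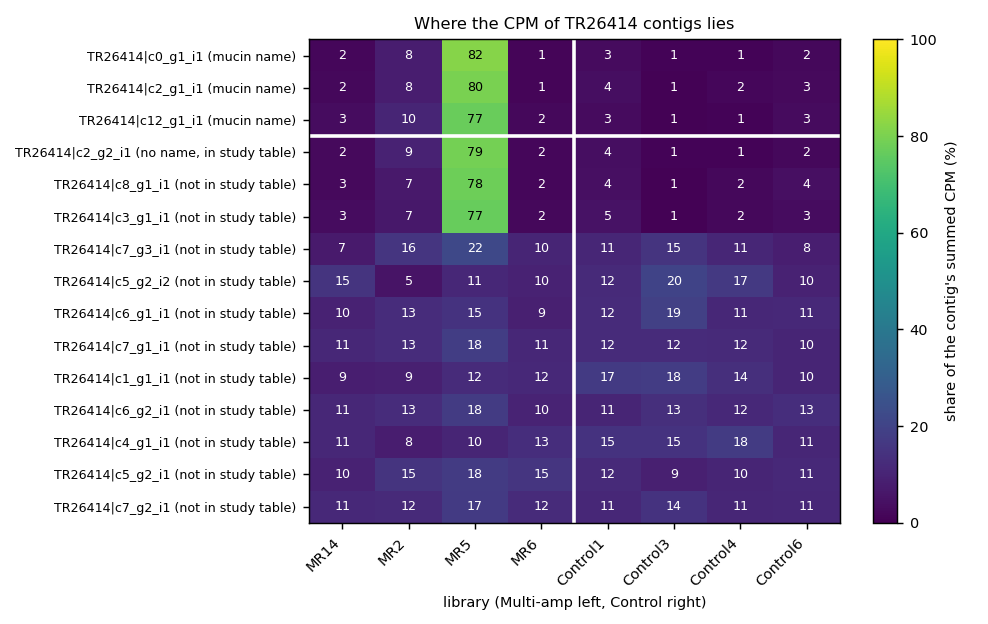
Share of each contig's CPM (percent, color and number) that lies in each of the 8 libraries, for the 3 mucin contigs of TR26414 above the white line and the 12 other contigs of the cluster that passed the filter below it. In 6 contigs MR5 holds 76.6 to 81.8%, and in the other 9 no library holds more than 21.8%.

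In TR18673 all 9 neighbours of the MUC3A-named contig were highest in Control3, with 56.2 to 85.7% of their CPM there. In 5 of the 9 the groups did not overlap. Among all contigs tested, 3.08% had every repeatedly amputated limb below every control limb. That share covers contigs that passed the filter on low counts. Of the 5 without overlap only TR18673|c3_g1_i2 passed it, so the sets are unlike and nothing is read from the comparison. For TR18673|c4_g1_i1 and TR18673|c5_g1_i1, Control6 had only 2 and 3 counts, at or under the floor, against at most 1 in repeatedly amputated limbs. Of the 9, 5 were themselves entries of the study's table and none of the other 4 passed the filter, so no test is given. The largest, TR18673|c3_g1_i2, had 1, 3, 4 and 0 counts in limbs MR14, MR2, MR5 and MR6, against 21, 182, 24 and 10 counts in limbs Control1, Control3, Control4 and Control6. Fragments were divided between the isoforms of TR18673|c3_g1, so the counts of each of these isoforms are uncertain.

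The pattern of TR26098 was rare in these libraries. Of the 23782 contigs with at least 200 summed counts, 14 (0.0589%) had over 95% of their CPM in Control3 and Control6 together, and 3 of these were the mucins that set the pattern. Another 9 were entries of the study's table, chosen on these libraries, of which 6 had a protein name. They included TGM4_HUMAN, a transglutaminase that in mammals belongs to the prostate, BPIB2_HUMAN, a secreted protein of the family of bactericidal permeability-increasing protein, and LECA_PLEWA, a newt lectin. The others were FUCL5_ANGJA (TR20837|c0_g1_i1), a fucose-binding lectin of eel, FBX36_MOUSE, an F-box protein, and CP2G1_RABIT, a cytochrome P450 known from the olfactory mucosa. A more abundant FUCL5_ANGJA contig, TR12888|c0_g1_i1, did not have the pattern. It had 299, 263, 391 and 1015 counts in limbs MR14, MR2, MR5 and MR6, against 2918, 7471, 627 and 835 counts in limbs Control1, Control3, Control4 and Control6. TGM4_HUMAN (TR23317|c0_g1_i1) had 22, 13, 1 and 16 counts in limbs MR14, MR2, MR5 and MR6, against 9, 2339, 13 and 789 counts in limbs Control1, Control3, Control4 and Control6. TR13404|c0_g1_i1 and TR11085|c0_g1_i1 also had the pattern but were not in the study's table, so no protein name was available. In the same order of libraries, TR13404|c0_g1_i1 had 3, 0, 21 and 1 against 2, 2125, 0 and 216 counts. TR11085|c0_g1_i1 had 0, 2, 2 and 3 against 0, 170, 0 and 31 counts. The pattern of TR26414 was also rare. MR5 held over 70% of the CPM, with MR2 next, in 8 contigs (0.0336%). Of these, 6 were TR26414 contigs, 3 of them the mucins that set the pattern. The others were CO9A1_MOUSE, a collagen of cartilage, and IL6RB_HUMAN, the shared receptor chain of the interleukin-6 family. The cartilage contig CO2A1_CHICK just missed the limit, with 69.7% in MR5 and MR2 second. PGCA_BOVIN, with 84.5% in MR5, and LECT1_BOVIN (TR23600|c0_g1_i1), with 76.9%, also had MR2 second, but on 175 and 92 counts. Some other cartilage contigs had another second library, as given below.

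A list of 13 contigs named after secreted lectins and mucosal defence proteins was drawn from the study's table, with earlier results known. Of these, 9 had a lower and 4 a higher mean log2 CPM in repeatedly amputated limbs, with a median difference of -2.92. The median over all contigs tested was -0.01, but only 5 of the 13 passed that filter. Since all 13 were chosen on these libraries, nothing is read from the gap between the medians. In 8 of the 13 Control3 was highest and Control6 second, the order of the TR26098 mucins. BPIB2_HUMAN (TR24138|c0_g1_i1) had 0, 0, 1 and 2 counts in limbs MR14, MR2, MR5 and MR6, against 1, 1630, 0 and 374 counts in limbs Control1, Control3, Control4 and Control6. The newt lectin LECA_PLEWA (TR11476|c0_g1_i1) had 0, 0, 0 and 1 counts, against 0, 1024, 0 and 141 counts in the same order. Control1 and Control4 were again as empty as the repeatedly amputated limbs. PIGR_BOVIN (TR14242|c0_g1_i1), the receptor that carries polymeric antibody across mammalian epithelia, was less extreme, with 8, 20, 18 and 35 counts in repeatedly amputated limbs and 133, 288, 14 and 137 counts in limbs Control1, Control3, Control4 and Control6.

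The 4 listed contigs with the other direction were 2 transferrins, TAL2_TACTR and a fucose-binding lectin, FUCL4_ANGJA (TR25555|c0_g1_i1). TRFEA_XENLA (TR869|c0_g2_i1), a serum transferrin that binds iron, had 2741, 1042, 5022 and 1832 counts in limbs MR14, MR2, MR5 and MR6, against 262, 432, 441 and 418 counts in limbs Control1, Control3, Control4 and Control6. All 4 repeatedly amputated limbs lay above all control limbs, which was not so for any TR26414 mucin. TAL2_TACTR (TR26493|c0_g1_i1), named after a horseshoe crab lectin, had 20, 16, 149 and 27 counts in repeatedly amputated limbs and 15, 8, 4 and 4 counts in control limbs.

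**Figure D4:**
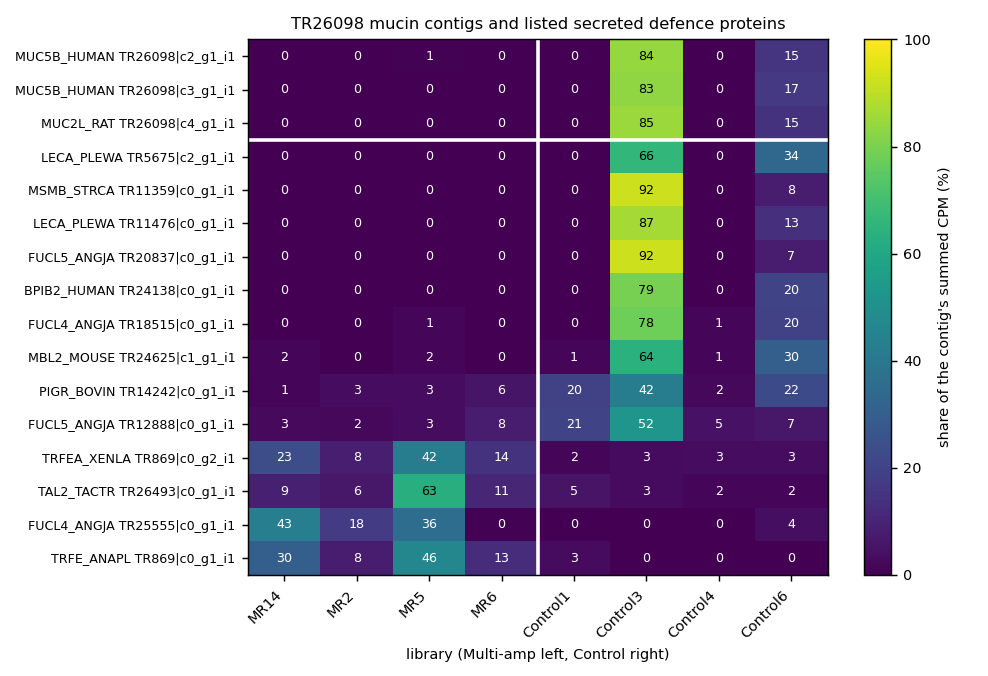
Share of each contig's CPM (percent, color and number) in each of the 8 libraries, for the 3 TR26098 mucin contigs above the white line and the 13 contigs named after secreted lectins and defence proteins below it. Control3 holds 83.3 to 85.0% of each mucin, and in 8 of the 13 listed contigs Control3 is highest and Control6 second.

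A list of 6 contigs named after proteins that serve the building of O-linked sugars or their sugar nucleotides showed no such concentration when summed, although some members were found in few libraries. It stood at 39.8, 26.8, 44.8 and 37.3 CPM in MR14, MR2, MR5 and MR6, against 33.0, 29.8, 28.7 and 32.4 CPM in Control1, Control3, Control4 and Control6, and the groups overlapped. Of the 6, 4 had a higher and 2 a lower mean log2 CPM in repeatedly amputated limbs, and 3 passed the filter. GALT6_HUMAN (TR13259|c0_g1_i1), of the family that starts O-linked sugars, had 174 counts in MR14 and 0 in the other 7 libraries, and so did not follow the mucins. SIA7B_MOUSE (TR22637|c18_g1_i1), a sialyltransferase that acts on O-linked sugars, had 71, 57, 153 and 90 counts in repeatedly amputated limbs and 33, 41, 31 and 31 counts in control limbs, with no overlap. Contigs named after GNA1_PONAB, which acetylates glucosamine phosphate, occurred as 2 assembled genes of TR10238. TR10238|c0_g1_i1 had 150, 299, 389 and 447 counts in repeatedly amputated limbs and 0 in every control limb, while TR10238|c0_g2_i1 had 226, 75, 171 and 71 counts in repeatedly amputated limbs and 552, 527, 423 and 478 counts in control limbs. Their means were 19.6 and 8.49 CPM in repeatedly amputated limbs and 0 and 27.3 CPM in control limbs. The whole list had means of 37.2 and 31.0 CPM, so its even sum rested largely on these 2 contigs with opposite directions. Both belong to the same component of the assembly and carry the same protein name. Whether they come from the same axolotl gene was not tested, so their directions are not read as those of separate genes.

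The contigs most like each mucin sum were ranked by Pearson's r of log2 CPM over the 8 libraries. This is a description, since the libraries are shared and a few of them set the pattern. Only contigs that passed the filter on low counts were ranked, a filter that no TR26098 mucin contig passed. Outside the 3 read clusters, the named contigs nearest to the TR26414 sum were CO2A1_CHICK (r = 0.8288), the main collagen of cartilage, OTOSP_HUMAN (0.823), otospiralin of the inner ear, FOSL2_CHICK (0.819), a transcription factor of the AP-1 family, TAL2_TACTR (0.795) and CO9A1_MOUSE (0.779). CO2A1_CHICK (TR29959|c0_g1_i1) had 8.90, 10.7, 70.5 and 6.03 CPM in MR14, MR2, MR5 and MR6, against 1.69, 1.05, 1.26 and 1.06 CPM in Control1, Control3, Control4 and Control6. The ranked named contigs nearest to the TR26098 sum were PINLY_HUMAN (r = 0.941), a protein with a phospholipase inhibitor domain, and K2C5_XENLA (0.923), a keratin. Next came TGM4_HUMAN (0.895), DHR11_CHICK (0.817), a dehydrogenase, and PIGR_BOVIN (0.754). BPIB2_HUMAN (TR24138|c0_g1_i1) and LECA_PLEWA (TR11476|c0_g1_i1), also found almost wholly in Control3 and Control6, had not passed the filter and were not ranked. The 5 nearest of all contigs tested had no protein name in either case, with r of 0.946 to 0.969 for TR26414 and 0.956 to 0.965 for TR26098. The nearest, TR27445|c0_g1_i1, differed little between libraries, with 9.37 CPM in MR5 and 7.25 to 8.13 CPM in the other 7, so a high r did not mean a change of like size.

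Marker lists of other cell types were drawn from the study's table, made on these libraries, so their differences between the groups were set by that choice. Of the sums below, only that of cartilage had the order of libraries MR5 and then MR2. The antibody sum was highest in Control4 and, among control limbs, lowest in Control3. A list of 8 cartilage contigs summed to 15.2, 17.9, 151 and 10.5 CPM in MR14, MR2, MR5 and MR6, against 2.01, 1.26, 1.66 and 1.24 CPM in Control1, Control3, Control4 and Control6. All 8 contigs were higher in mean and did not overlap in CPM, and 3 of the 8 passed the filter. Some of these separations lay at or under the floor of 3 counts. TR23600|c1_g1_i1 had 1 count in both MR14 and Control1, and PGCA_BOVIN had 3 counts in MR6 against 2 in Control1. Among all contigs tested, 3.29% had every repeatedly amputated limb above every control limb. In the sum MR5 was highest and MR2 second, as for the TR26414 mucins. The second library was MR14 for CO9A3_CHICK and PGCA_HUMAN, and MR6 for TR23600|c1_g1_i1. In 2 of the 8 every control limb was at 0. A list of 29 skeletal muscle contigs summed to 3063, 862, 4754 and 228 CPM in repeatedly amputated limbs and 11.2, 70.1, 455 and 13.1 CPM in control limbs, with all 29 higher in mean and MR5 highest, but with MR14 second. MR14 had few mucin reads, so muscle and TR26414 mucin did not share an order of libraries. A list of 7 antibody contigs had 270, 175, 158 and 289 CPM in repeatedly amputated limbs and 886, 524, 922 and 697 CPM in control limbs, all 7 lower in mean. Their part in the mucin values was not tested.

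Among the epidermal contigs, the type II keratin K2C5_XENLA (TR25248|c0_g1_i1) followed the libraries of the TR26098 mucins. It had 76.7, 94.7, 138 and 139 CPM in MR14, MR2, MR5 and MR6, against 247, 3045, 52.2 and 772 CPM in Control1, Control3, Control4 and Control6. Control3 and Control6 were highest and Control4 was the lowest of all 8. The stress keratin K2C6A_MOUSE (TR19344|c0_g1_i1) did not follow them, with 427, 590, 196 and 1613 counts in repeatedly amputated limbs and 16641, 14843, 23020 and 1708 counts in limbs Control1, Control3, Control4 and Control6. LAMA3_HUMAN and LAMB3_HUMAN, laminin chains of the epidermal basement membrane, were higher in mean in repeatedly amputated limbs. LAMA3_HUMAN (TR16559|c7_g1_i1) had 1023, 1158, 2539 and 4362 counts against 666, 743, 575 and 525 counts, without overlap. For LAMB3_HUMAN (TR22630|c0_g1_i1) MR14 was only just above Control1 in CPM, with 159 against 155. In FPKM it was below Control1, with 24.4 against 26.7. TGM3_BOVIN, an enzyme of the cornified layer, was at 0 in all repeatedly amputated limbs and in Control4. Of the 6 epidermal contigs, 3 were higher and 3 lower in mean in repeatedly amputated limbs. Whether the amount or the kind of epidermis in a sample bears on its mucin reads was not tested.

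**Figure D5:**
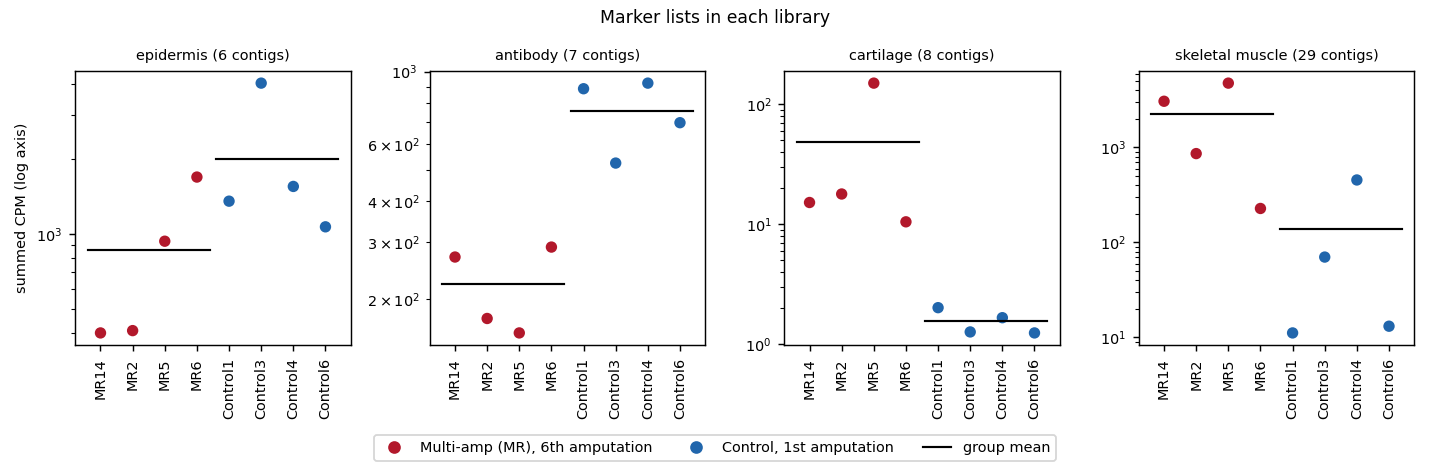
Summed CPM (log axes, each with its own range) of the lists of epidermal, antibody, cartilage and skeletal muscle contigs in each library, repeatedly amputated limbs in red to the left and control limbs in blue to the right, with a line at each group mean. Control3 is highest for the epidermal list at 4020 CPM, of which the keratin contig K2C5_XENLA gives 3045 CPM. MR5 is highest for cartilage at 151 CPM and muscle at 4754 CPM.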

How the data were processed

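RNA from 8 axolotl limb stumps was sequenced as paired-end reads (Illumina TruSeq v2 libraries). The authors assembled the transcripts de novo with Trinity, named them with Trinotate and applied an FPKM threshold to the assembly. The submitters' processing notes name CASAVA 1.8.2 and RSEM. The authors deposited RSEM expected counts per transcript, without normalization, and FPKM values after TMM scaling. No genome was used, so positions and strands are not given.

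Expected counts were rounded to whole numbers. CPM were computed on library sizes multiplied by the TMM factor. Contigs passing filterByExpr entered edgeR's quasi-likelihood test (edgeR 4.0.16, robust, R 4.3.3) with Benjamini-Hochberg adjustment over all 32757 contigs tested, and the F statistic gave the standard errors. Log2 CPM used a prior count of 0.5, or 2 for Pearson correlations. Alternatives were DESeq2 1.42.0 size factors and Wald test, the edgeR exact test, limma 3.58.1 on log2(FPKM + 1) and log2(FPKM + 0.1), no filter, at least 10 summed counts, and each library left out. The search over contigs with at least 200 summed counts and the fits without 2 libraries were chosen after the data were seen. The tests were tested on simulated data.

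Column names gave the group of a library but no animal, and columns named MR were taken as the Multi-amp group, the only group other than Control. The labels call the libraries biological replicates. By chi-square over contigs, no libraries of a group were alike within sampling noise.

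The members and lists were chosen with earlier results of these data known, and from a table made on these libraries. Protein names came from that table, of whose 497 named entries 490 matched 1 contig by mean FPKM within 1e-06. Contigs named in the text were the 7 members, their tested neighbours (summarised, with the extremes) and every list. Also named were the 5 contigs and 5 named contigs most correlated with each mucin sum among those that passed the filter. Contigs sharing a library pattern were named after their values were seen. Contig sequences were not used here. Counts of 0 have a floor of 3 counts per library, for counting error only.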

Additional observations from a re-analysis of the deposited data

Results flagged for a closer look

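In 7 of the 18 groups of 4 libraries examined (7 contigs and 2 sums in each group), the highest library was separated from the next by more than Dixon's 95% critical value for 4 values. TR18673|c1_g2_i1 and TR26098|c3_g1_i1 were at 0 in all 4 repeatedly amputated libraries, so these 2 groups could not be flagged. No rate by chance is given, since the contigs were chosen on these libraries and the critical value assumes normally distributed values. The groups are also not independent, since contigs of a read cluster share reads of the same limbs. Among repeatedly amputated limbs MR5 stood apart with 48.4 CPM for TR26414|c0_g1_i1, 10.9 CPM for TR26414|c12_g1_i1, 253 CPM for TR26414|c2_g1_i1 and 312 CPM for their sum. MR5 also stood apart for TR26098|c2_g1_i1 (0.314 CPM) and for the TR26098 sum (0.440 CPM), on 5 and 7 counts. Among control limbs Control3 stood apart for TR18673|c1_g2_i1 with 13.8 CPM. Control3 did not pass this limit for the TR26098 contigs, where Control6 was the second library with reads.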

How the results depend on the processing

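Over all contigs, 4 passed an FDR of 0.05 in edgeR's quasi-likelihood test and with DESeq2 size factors, 21 with no filter on low counts, 9 with at least 10 summed counts, 374 in the edgeR exact test, 759 in DESeq2's Wald test, 11 with limma on log2(FPKM + 1) and 9 with limma on log2(FPKM + 0.1). Leaving out 1 library gave 2 (without MR5) to 14 (without Control1) calls. The cause of these differences was not tested. Among the tested neighbours of the mucins the count was 0 under all 15 alternatives. The log2 difference of the TR26414 sum was 0.69 to 2.63 with 1 library left out, lowest without MR5, and 1.70 to 1.88 under the 5 other scales. For the TR26098 sum it was -6.15 to -2.22 with 1 library left out and, on log2(FPKM + 1), -2.34. Without Control3 and Control6 it was 0.62, and the log2 ratio of the read clusters was 0.82, with only libraries of at most 7 TR26098 counts left. That ratio was 3.63 to 8.28 with 1 library left out, 5.48 with 2 counts added and 6.47 on summed FPKM. TR18673|c1_g2_i1 gave -5.94 with a prior count of 0.5, -4.05 with 2 and -1.09 on log2(FPKM + 1), since its size against libraries at 0 follows the value added. No paired analysis was possible because the labels give no replicate numbers that are shared by the groups. The depth limits statements on contigs at 0 to the floor of 3 counts per library.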
